A study of Mus musculus with 10 samples.

Results

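Macrophages were sorted from mammary tumors of mice whose Cxcr4 gene was targeted for deletion in myeloid cells, and their RNA was compared with that of macrophages from tumors of control littermates. Of the 10 libraries of the series, the 6 macrophage libraries were used, and of 23202 genes listed in the macrophage table, 15149 were protein-coding. The 10000 protein-coding genes that averaged 5 CPM or more across these libraries were kept for description, where CPM is the number of a gene's reads per 1000000 reads of its library. CPM is not corrected for gene length, so levels are compared between libraries and not between genes. Lime1 (mean 5.001 CPM) was just inside this limit and Aif1l (mean 4.999 CPM) just outside it.

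All mice were B6 animals that carried the MMTV-PyMT transgene, in which a viral oncogene is expressed in the mammary epithelium and mammary tumors arise. Both groups also carried floxed Cxcr4 alleles. Mice 725, 746 and 867 had in addition LysM-Cre, the recombinase expressed from the lysozyme M gene of myeloid cells, and they form the group labelled cKO (n = 3). Mice 706, 720 and 775 were littermates without LysM-Cre and form the control group (n = 3). LysM-Cre is active in neutrophils and monocytes as well as in macrophages, so the label does not name a macrophage-only deletion. Tumors of matched size were taken at 15 weeks, digested with collagenase D and DNase I, and sorted on F4/80 (the product of Adgre1) and CD11b (the product of Itgam). Each library came from a different mouse, so the spread within a group includes differences between animals.

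CXCR4 is a G protein-coupled receptor for the chemokine CXCL12. Binding of CXCL12 activates Gi proteins, and through PI3K, Rac and other GTPases it drives migration and retention of leukocytes. ACKR3 also binds CXCL12 and removes it without G protein signaling. In tumors, CXCL12 is made by stromal cells, and CXCR4 on monocytes and macrophages is known for drawing them towards CXCL12-rich perivascular sites, where macrophages can promote vessel growth and tumor cell escape.

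The targeted receptor was counted at no lower level under the cKO label. Cxcr4 stood at 41.9, 165 and 24.1 CPM in cKO 725, 746 and 867, and at 14.4, 135 and 54.3 CPM in control 706, 720 and 775. The lowest library was a control and the highest was labelled cKO, and the groups overlapped over most of their range. The means were 77.1 ± 76.8 CPM (SD, n = 3) in cKO and 68 ± 61.6 CPM (SD, n = 3) in control. The log2 difference, cKO minus control on the log2(CPM + 1) scale as everywhere below, was 0.21 with a 95% interval from -1.02 to 1.44. It turned to -0.57 without cKO 746 and to -0.62 without control 706. These CPM values are given per gene, and the exons between the loxP sites were not analysed here. In 4 whole-tumor libraries of the series, normalized separately, Cxcr4 stood at 29.8 to 57.6 CPM. Whether transcripts of a deleted allele, or of cells in which LysM-Cre is not active, were counted was not tested. The level of the target gene thus did not tell the labels apart, and every direction below refers to libraries by their label.

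Cxcr4 lies at chr1:128588199-128592293 on the minus strand (GRCm38, by gene identifier in the GENCODE annotation). The bases before its start site are shown beside those of Itgam, a marker used in the sort. Such regions take part in setting how much of a gene is transcribed, and their part here was not tested. Windows were found by symbol for 7937 of the 10000 kept genes, and Adgre1 was not among them. Both are 250 bases long, taken from RefSeq (GRCm38.p6), and given 5′ to 3′ in the direction of transcription, ending at the base before the start site. The Cxcr4 window is chr1:128592300-128592549 (minus strand), and the Itgam window is chr7:128062390-128062639 (plus strand).
Cxcr4: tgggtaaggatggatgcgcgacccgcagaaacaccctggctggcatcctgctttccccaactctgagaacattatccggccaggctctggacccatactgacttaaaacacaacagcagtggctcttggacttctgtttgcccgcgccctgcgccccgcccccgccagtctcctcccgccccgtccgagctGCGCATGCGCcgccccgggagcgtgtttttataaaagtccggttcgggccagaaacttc
Itgam: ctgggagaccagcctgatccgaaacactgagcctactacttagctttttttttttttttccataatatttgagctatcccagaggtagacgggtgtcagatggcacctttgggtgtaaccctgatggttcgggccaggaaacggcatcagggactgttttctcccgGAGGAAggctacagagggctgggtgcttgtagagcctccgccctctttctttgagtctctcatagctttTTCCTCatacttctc
In the Cxcr4 window the capitals mark GCGCATGCGC, the motif of the factor NRF1, which reads the same on both strands. It begins 59 bases before the start site, and 0.782% of the 32851 windows of this length hold it. In the Itgam window the capitals mark GAGGAA, or TTCCTC on the other strand, the core of sites of the myeloid factor PU.1. It occurs 2 times, beginning 84 and 15 bases before the start site, and 23.3% of windows hold it. These matches describe the letters only, and binding was not measured.

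The sort markers were present in every library. Adgre1 stood at 555, 503 and 348 CPM in cKO 725, 746 and 867 and at 444, 487 and 237 CPM in control 706, 720 and 775. Itgam stood at 68.4, 85.7 and 191 CPM in the libraries labelled cKO and at 112, 136 and 45.5 CPM in control. Both genes were lowest in control 775, and the groups overlapped for both. The log2 difference was 0.31 (95% interval -0.29 to 0.90) for Adgre1 and 0.23 (-0.55 to 1.01) for Itgam. Without control 775 these became -0.02 and -0.25, and Itgam was at -0.21 without cKO 867.

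**Figure D1:**
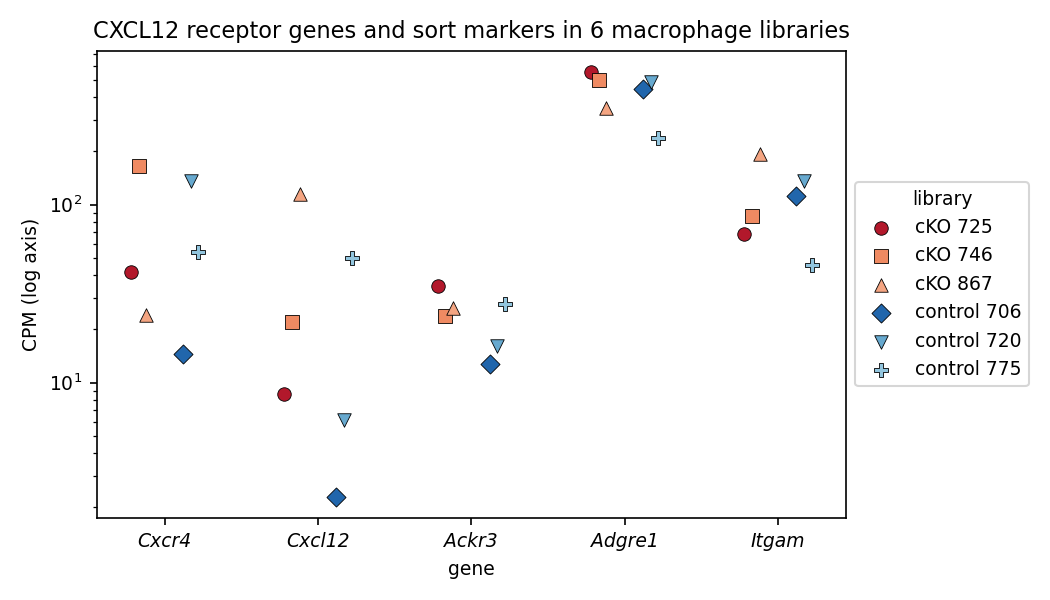
Levels of Cxcr4, its ligand Cxcl12, the second receptor Ackr3 and the sort markers Adgre1 and Itgam in each library, in CPM on a log axis; each point is 1 library. For Cxcr4 the highest point is cKO 746 (165 CPM) and the lowest is control 706 (14.4 CPM), and the groups overlap for all 5 genes.

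Control 706 was the shallowest library at 14.4 M reads, and the other 5 held 20 to 25.2 M reads, estimated from the spacing of low values (M, 1000000). A gene listed at 0 allows up to 0.119 to 0.208 CPM, which is 3 reads, and covers counting error only. Protein-coding genes took 67.6% of reads in control 775 and 73.4% to 80.1% elsewhere. The macrophage markers (24 genes, summed) reached 1961 CPM in control 775 and 3549 to 5959 CPM in the other libraries. Markers of luminal epithelium, the tumor cell type, were abundant after the sort: the 26 genes summed to 6291 to 7889 CPM with none at 0, and Epcam stood at 339 to 616 CPM in the sorted libraries and at 330.4 to 462 CPM in 4 whole-tumor libraries of the series, which were normalized separately. Adgre1 stood at 17.4 to 28.5 CPM in those tumor libraries. Endothelial markers (20 genes) summed to 933 CPM in cKO 867 and 405 CPM in control 775, against 39.8 to 94.8 CPM in the other 4. Neutrophil markers (16 genes) summed to 800.4 to 1777 CPM, a sum that includes Lcn2 and Ltf, which mammary epithelium also makes. Of these markers S100a8 reached at most 5.63 CPM, and S100a9 was listed at 0 in 5 of 6 libraries. Csf3r, a receptor of neutrophils, stood at 13.4 to 50.5 CPM, and at 0.0282 to 4.12 CPM in the whole-tumor libraries. How many neutrophils the sort held was not tested. In bulk RNA, fewer cells of a type and less RNA per cell cannot be told apart. The part of these other cells in the values above, that of Cxcr4 included, and in those below was not tested. Values without a library show how far a difference rests on that library, and not which cells it came from.

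The other parts of the CXCL12 axis showed no separation between the groups either. Cxcl12 itself stood at 8.60, 21.8 and 115 CPM in cKO 725, 746 and 867 and at 2.29, 6.14 and 50.3 CPM in control 706, 720 and 775. It was highest in cKO 867 and control 775, the same 2 libraries in which endothelial and collagen genes were highest. The log2 difference was 1.47 (95% interval -0.17 to 3.11), and it was 0.47 without cKO 867 and 2.60 without control 775. Ackr3 stood at 34.8, 23.8 and 26.4 CPM in the libraries labelled cKO and at 12.8, 16.1 and 27.5 CPM in control. Its log2 difference was 0.62 (-0.21 to 1.44), with control 775 inside the range of the other group. Cd74, the class II invariant chain and a receptor of the cytokine MIF, had a log2 difference of 0.43 (-0.38 to 1.23), and Mif was under the level limit.

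Below the receptor, 25 of 26 genes of the signaling list were kept, from Gi subunits to PI3K, Rac activators and kinases. Their median log2 difference was 0.13, beside 0.05 over all kept genes, and 19 were higher and 6 lower in mean, where 56% of all kept genes were higher. Rac2, the Rac GTPase of blood cells, stood at 35.9, 58.0 and 35.0 CPM in cKO 725, 746 and 867 and at 30, 29.2 and 9.74 CPM in control 706, 720 and 775. All 3 libraries labelled cKO were above all 3 controls, and the log2 difference was 0.99 (0.14 to 1.84), or 0.48 without control 775. Gnb2, a G protein beta subunit, did not overlap either, with a log2 difference of 0.31 (-0.29 to 0.91). These 2 of 25 genes stand beside 3.42% of all kept genes that did not overlap in the higher direction. The most abundantly counted members differed little: Cdc42 by 0.07 (-0.52 to 0.66), Rhoa by 0.14 (-0.40 to 0.68) and Gnb1 by 0.06 (-0.44 to 0.57). The median over this list was -0.03 without control 775.

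Genes that switch the receptor off or move it to the lysosome (RGS proteins, GRKs, arrestins and sorting factors) gave similar values. The 20 symbols of this list stood for 18 genes. Of these genes, 15 were kept, 10 were higher in mean, and the median log2 difference was 0.14 (-0.06 without control 775). Grk6, a kinase that phosphorylates activated chemokine receptors, stood at 24.1, 34.9 and 41.8 CPM in cKO 725, 746 and 867 and at 22.2, 19.3 and 12 CPM in control 706, 720 and 775. The groups did not overlap, although cKO 725 and control 706 were close, and the log2 difference was 0.89 (0.08 to 1.69). Rgs1, which shortens Gi signaling in leukocytes, differed by 0.11 (-0.49 to 0.70), Rgs2, another RGS protein, by 0.19 (-0.48 to 0.87), and the ubiquitin ligase Itch, which marks CXCR4 for degradation, by -0.00 (-0.50 to 0.50).

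Over the whole comparison, no gene passed the threshold. With limma's moderated test and Benjamini-Hochberg adjustment, 0 of 16304 fitted genes (0%) and 0 of the 10000 kept genes (0%) had an adjusted p under 0.05, and the lowest adjusted p was 0.9998. Without adjustment, p was under 0.05 for 428 fitted genes and for 235 kept genes (2.35%), of which 150 were higher and 85 lower in the libraries labelled cKO. The groups did not overlap for 342 kept genes in the higher direction (3.42%) and 314 in the lower direction (3.14%), 656 in all (6.56%). Scaling to protein-coding reads turned this split to 264 higher and 445 lower (37.2% higher, against 52.1%). Means were higher in cKO for 56% of kept genes (47.7% on that scaling), with a median log2 difference of 0.05 and 5th and 95th percentiles of -0.63 and 0.77. Differences of 2-fold or more were found in 269 genes in the higher and 150 in the lower direction. Full separation of 3 against 3 libraries has p = 0.1 in an exact permutation test, and the 6.56% without overlap lies below that proportion. Genes without overlap in any list are to be read beside the shares of all kept genes given here.

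The precision depended on the level of the gene. The median half-width of the 95% interval was 0.79 on the log2 scale, a 1.74-fold change. For the 1674 kept genes at 100 CPM or more it was 0.54, and in 91.6% of these the interval lay inside 2-fold in both directions. For the 1861 genes at 5 to 10 CPM it was 1.36, and no interval lay inside 2-fold (0%). Over all kept genes, the interval lay inside 2-fold for 4489 (44.9%) and inside 4-fold for 9083 (90.8%), while for 354 (3.54%) it lay inside 1.5-fold. Small changes in most genes and larger changes in weakly counted genes were thus not detectable with these 6 libraries.

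**Figure D2:**
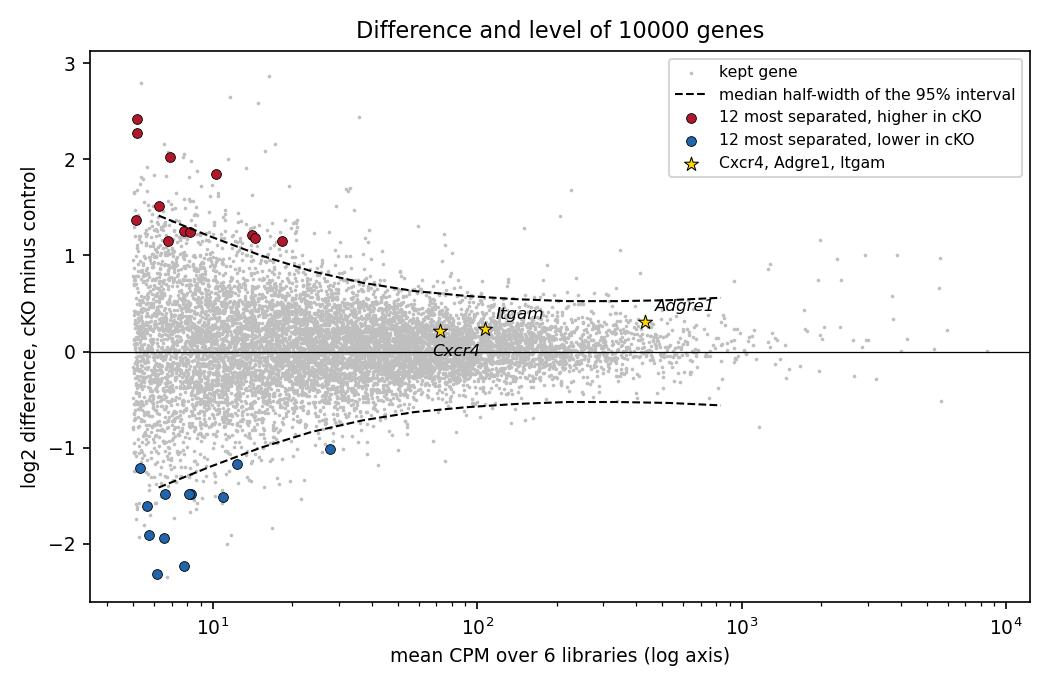
Log2 difference (cKO minus control) against mean CPM (log axis) for the 10000 kept genes, with the 12 most separated genes per direction, Cxcr4, Adgre1 and Itgam marked; dashed lines are the median half-width of the 95% interval at each level. Cxcr4, Adgre1 and Itgam lie at 0.21 to 0.31, inside the dashed lines, and the marked separated genes lie mostly at low levels, where the intervals are widest.

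Libraries differed as much within a group as between groups. Between 2 libraries of the same group, 15.3% to 20.8% of kept genes differed 2-fold or more (6 pairs), and between libraries of different groups 11.2% to 22.4% (9 pairs). The closest pair of all 15 was cKO 725 with control 775. The first principal component (31.2% of variance) placed cKO 867 and control 775 at one end and control 706 at the other, and genes of vessels and connective tissue such as Plvap, Col3a1, Col1a2 and Ednrb were among the 15 of largest weight at the first end. Col3a1, a fibrillar collagen, stood at 23.6, 38.1 and 652 CPM in cKO 725, 746 and 867 and at 11.0, 21.9 and 156 CPM in control 706, 720 and 775. The second component (23.4%) placed cKO 746 beside control 720, the 2 libraries with the highest Cxcr4, and Cxcr4 was among the 15 genes of largest weight on that side. The third (19.2%) separated these same 2 libraries from each other.

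**Figure D3:**
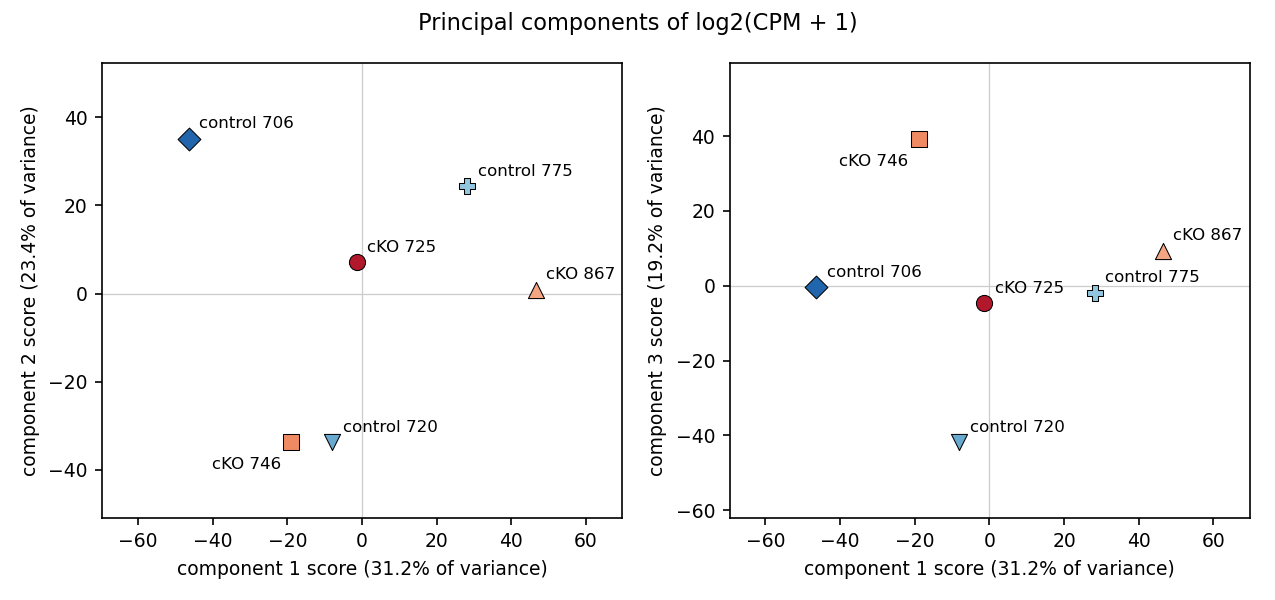
Scores of the 6 libraries on principal components 1 and 2 (left) and 1 and 3 (right) of log2(CPM + 1) over the kept genes, with the share of variance on each axis; each point is 1 library. On component 1 cKO 867 (46.5) and control 775 (28.2) lie opposite control 706 (-46.3), and none of the 3 components separates the 2 groups.

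Individual genes were named by the gap between the nearest libraries of the 2 groups, 12 per direction. Because they were picked for this gap, their separation is a description, and none had an adjusted p under 0.05. Among those higher in the libraries labelled cKO, Ufsp2, the protease that releases the ubiquitin-like UFM1, stood at 10.7, 14.3 and 9.22 CPM in cKO 725, 746 and 867 and at 4.31, 3.87 and 4.17 CPM in control 706, 720 and 775. Mta3, a subunit of the NuRD chromatin complex, stood at 20.2, 31.8 and 25 CPM against 9.93, 11.9 and 10.7 CPM in the same order. These 2 genes had controls that lay close together, with log2 differences of 1.26 (0.04 to 2.47) and 1.15 (0.27 to 2.03).

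Triobp, which bundles actin filaments, stood at 9.59, 23.8 and 16.3 CPM in cKO 725, 746 and 867 and at 1.32, 5.39 and 5.52 CPM in control 706, 720 and 775, a log2 difference of 1.85 (0.58 to 3.13). Cox7a2, a subunit of cytochrome c oxidase, stood at 6.44, 17.9 and 3.85 CPM against 1.53, 0 and 1.39 CPM, a log2 difference of 2.27 (0.66 to 3.88). Rtl8a, a gene derived from a retrotransposon, had the largest difference of the 12, 2.42 (0.83 to 4.0), and it has near-identical copies beside it, among which reads could have been split. In all 3 genes every library labelled cKO was above every control, but at levels of a few CPM.

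The other genes described in this direction spanned log2 differences from 1.15 to 2.03. They were Tinagl1, a basement membrane protein, Slc22a17, a receptor of lipocalin 2, the tubulin tyrosine ligase Ttl, the ribosome assembly factor Rrp12, the dehydrogenase Dhdh and the zinc finger gene Zswim1. The interval reached below 0 for Zswim1 (-0.12 to 2.42). For Dhdh the libraries labelled cKO stood at 23.9, 24.1 and 13.6 CPM and the controls at 7.99, 8.23 and 8.39 CPM.

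Among the 12 most separated genes lower in the libraries labelled cKO, Ptges, the inducible prostaglandin E synthase, stood at 8.11, 5.2 and 2.98 CPM in cKO 725, 746 and 867 and at 16.7, 13.8 and 18.7 CPM in control 706, 720 and 775. The log2 difference was -1.51 (-2.64 to -0.37), and the nearest libraries of the groups were cKO 725 and control 720. Lpcat4, an enzyme that remodels phospholipids, stood at 3.10, 4.95 and 3.70 CPM against 14.5, 13.5 and 10 CPM, a log2 difference of -1.48 (-2.68 to -0.27). Tufm, the elongation factor of mitochondrial translation, stood at 3.81, 0.133 and 1.1 CPM against 11.9, 6.87 and 13 CPM, a log2 difference of -2.32 (-3.83 to -0.81). All 3 genes had every library labelled cKO below every control.

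Slf1, a DNA repair factor, was listed at 0 in cKO 746 and at 4.03 and 3.74 CPM in cKO 725 and 867, against 18.5, 8.81 and 11.7 CPM in control 706, 720 and 775, a log2 difference of -2.23 (-3.72 to -0.73). Dennd2d, an exchange factor for a Rab GTPase, had little spread within groups: 19.8, 18.1 and 16.6 CPM in the libraries labelled cKO and 36.1, 37.7 and 38.5 CPM in control, a log2 difference of -1.01 (-1.73 to -0.28). It overlaps Cept1 on the other strand, which had a mean of 35.3 CPM. Whether counting used strand is not given in the sources used here, so reads of these 2 genes cannot be told apart. The same holds for Atp6v1c2, a subunit of the proton pump of lysosomes (log2 difference -1.94, -3.39 to -0.50), which overlaps Pdia6 (mean 125 CPM).

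The remaining 6 genes of this direction had log2 differences from -1.91 to -1.17. They were Htatip2, known as a metastasis suppressor, the scramblase family gene Ano9, C2cd4b, the mitotic helicase gene Ercc6l, the phosphatase gene Dusp12 and Asb8, a ubiquitin ligase adaptor. The interval reached above 0 for Ercc6l (-2.56 to 0.14). For Asb8 the libraries labelled cKO stood at 9.24, 6.60 and 5.80 CPM and the controls at 17.0, 20.3 and 14.7 CPM.

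**Figure D4:**
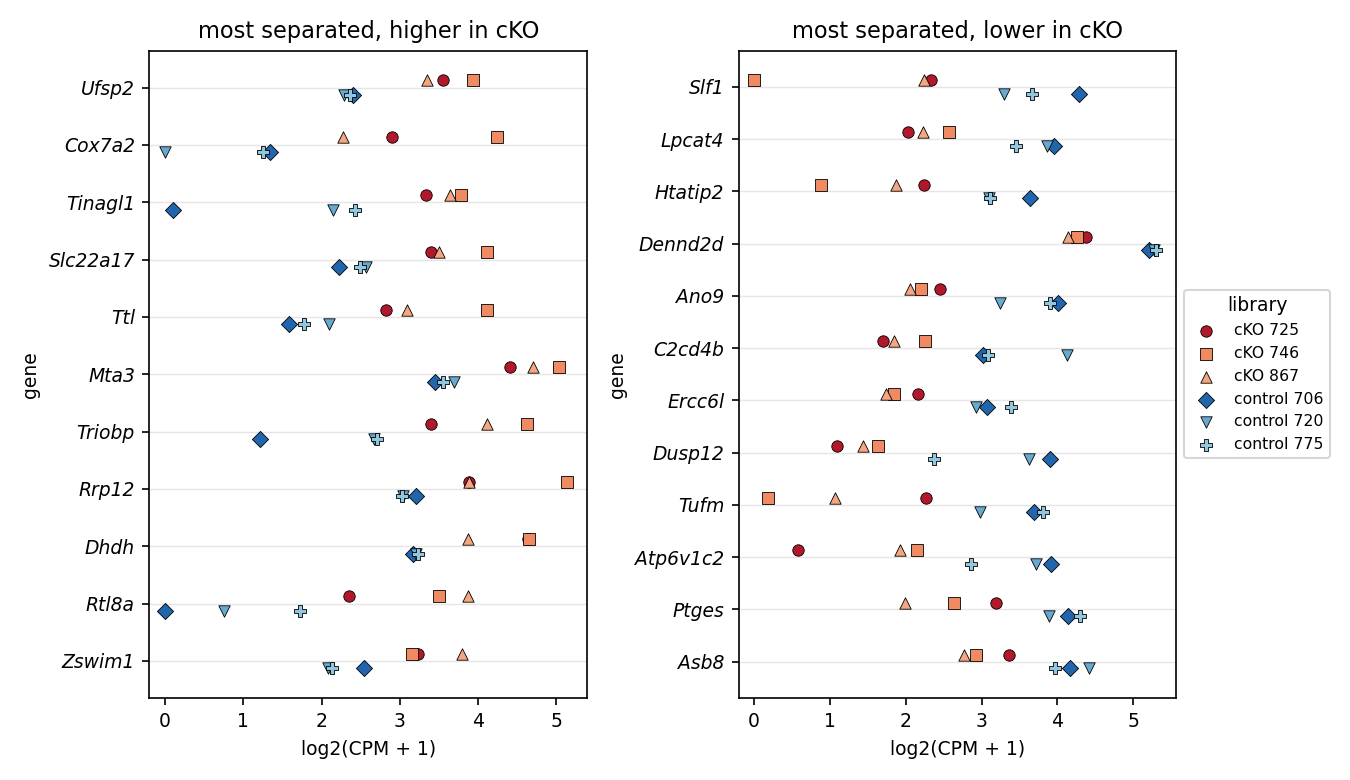
Values of the most separated genes that the text describes in each library, as log2(CPM + 1); upper points of each row are libraries labelled cKO and lower points are controls. The groups do not overlap in any row because the genes were chosen for that, and rows run from the widest gap at the top to the narrowest at the bottom.

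Among the 1674 kept genes at 100 CPM or more, where intervals were narrowest, the groups did not overlap for 75 (4.48%), 46 higher and 29 lower, with log2 differences from -0.71 to 0.90. For 7 of these the 95% interval lay on one side of 0 before any adjustment. They were chosen after their values were seen. Egr3, an early response transcription factor, stood at 169, 194 and 355 CPM in cKO 725, 746 and 867 and at 76.8, 160.4 and 144 CPM in control 706, 720 and 775 (log2 difference 0.90, 0.26 to 1.54). Fnip1, a partner of the energy sensor AMPK, stood at 262, 209.9 and 232 CPM against 160.3, 151 and 154 CPM (0.59, 0.09 to 1.08). Rel, an NF-kappaB subunit of immune cells, stood at 359, 394 and 356 CPM against 289.6, 301 and 192 CPM (0.53, 0.01 to 1.05). Fnip1 had the widest gap between groups of the 7 genes. Rel was lowest in control 775, without which it differed by 0.32. Egr3 differed by 0.57 without cKO 867 and without control 706.

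Rhou, a small GTPase (0.57, 0.05 to 1.1), and Glul, glutamine synthetase (0.76, 0.20 to 1.33), were also on the higher side. On the lower side, Alcam, an adhesion molecule of leukocytes and epithelium, stood at 120.3, 131 and 89.4 CPM in the libraries labelled cKO and at 186, 137 and 243 CPM in control (-0.71, -1.27 to -0.15). Ly6d, a surface protein of epithelium and some immune precursors, stood at 126, 97.0 and 107 CPM against 154, 147 and 203 CPM (-0.60, -1.12 to -0.07). Both were highest in control 775, the library with the lowest macrophage marker sum.

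Macrophage identity genes were higher in mean in the group labelled cKO for 21 of 23 kept genes, with a median log2 difference of 0.29. This rested on control 775: without it the median was -0.23. Csf1r, the receptor of the macrophage growth factor, stood at 349.7, 451 and 371 CPM in cKO 725, 746 and 867 and at 459, 378 and 155 CPM in control 706, 720 and 775. C1qb, a complement subunit, stood at 315, 394 and 242 CPM against 386, 293 and 151 CPM. Ctss, the cathepsin that degrades the invariant chain, had a log2 difference of 0.37 (-0.51 to 1.25) and the leukocyte phosphatase Ptprc one of 0.23 (-0.35 to 0.81). No gene of the list separated the groups. Lyz2, whose locus drives the Cre, was not kept: it stood at 4.55, 1.35 and 7.31 CPM in the libraries labelled cKO and at 3.10, 0.134 and 3.44 CPM in control, and reads could have been split with its near-identical neighbor Lyz1.

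Antigen presentation followed the same libraries. All 12 kept class II genes were higher in mean, with a median log2 difference of 0.43, which was -0.09 without control 775 and 0.91 without control 706. H2-Ab1, a class II beta chain, stood at 4609, 4361 and 2437 CPM in cKO 725, 746 and 867 and at 6652, 3073 and 1178 CPM in control 706, 720 and 775. H2-Aa, the alpha chain, stood at 5352, 4631 and 2943 CPM against 4660, 3020 and 1553 CPM. In both genes cKO 867 and control 775 were lowest, and the groups overlapped. None of the 12 genes separated the groups.

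Resident and perivascular macrophage genes, which include scavenger receptors, depended on cKO 867. Of 11 kept genes, 9 were higher in mean and the median log2 difference was 0.35, or -0.06 without cKO 867. Mrc1, the mannose receptor, stood at 76.2, 76.1 and 507 CPM in cKO 725, 746 and 867 and at 61.5, 153 and 149 CPM in control 706, 720 and 775. Cd163, the hemoglobin scavenger receptor, stood at 11.5, 11.3 and 145 CPM against 5.14, 16.2 and 34.5 CPM. In cKO 867 alone both were far above the others. Selenop, a selenium carrier, was the only gene of this list whose groups did not overlap: 792, 710.0 and 1030 CPM against 656, 705 and 567 CPM, with cKO 746 and control 720 nearly equal and a log2 difference of 0.38 (-0.16 to 0.92). It overlaps Ccdc152, whose reads cannot be told apart from its own. Stab1, another scavenger receptor, differed by 0.08 (-0.61 to 0.78).

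Alternative activation genes shared this library. Of 15 kept genes, 11 were higher and 4 lower in mean, with a median log2 difference of 0.35, or -0.16 without cKO 867. Single genes ranged from -1.02 to 1.30. Unadjusted limma p was under 0.05 for 3 of the 15, beside 2.35% of all kept genes. Retnla, a secreted factor induced by interleukin 4, stood at 41.4, 74.0 and 188 CPM in cKO 725, 746 and 867 and at 23.1, 60.4 and 57.0 CPM in control 706, 720 and 775 (log2 difference 0.94, 0.05 to 1.82). Arg1, arginase, stood at 16.6, 37.3 and 34.9 CPM against 135, 47.7 and 29.4 CPM (-1.02, -1.92 to -0.12). Both were chosen after their values were seen, and both had overlapping groups. Retnla differed by 0.36 without cKO 867 and by 0.50 without control 706. Arg1 differed by -0.41 without control 706 and by -0.66 without cKO 725. The most abundantly counted members, Tgm2 (-0.19, -0.71 to 0.34), Klf4 (0.46, -0.12 to 1.04) and the interleukin 4 receptor chain Il4ra (0.13, -0.47 to 0.73), had intervals that included 0.

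Inflammatory genes were higher in mean in the group labelled cKO for 16 of 18, with a median log2 difference of 0.31. It ranged from 0.18 to 0.40 as single libraries were left out and was 0.08 without both cKO 867 and control 775. Il1b, an inflammatory cytokine of macrophages, stood at 493, 476 and 468 CPM in cKO 725, 746 and 867 and at 1011, 321 and 246 CPM in control 706, 720 and 775. Nfkbiz, an inducible regulator of NF-kappaB targets, differed by 0.28 (-0.30 to 0.85), and Tnfaip3, which ends NF-kappaB signaling, by 0.09 (-0.43 to 0.61). No gene of this list separated the groups. Interferon response genes were evenly split, 19 higher and 20 lower of 39, with a median of -0.00, whose sign changed with the library left out (-0.23 to 0.22). The most abundantly counted were Rsad2 (-0.18, -0.86 to 0.50), Ifi44 (-0.13, -0.78 to 0.53) and the RNA sensor Rigi (-0.00, -0.62 to 0.61). Within the list, Gbp6 stood at 17.8, 31.4 and 21.6 CPM against 2.15, 0.204 and 15.5 CPM (log2 difference 2.59, 1.1 to 4.08), and Gbp4 also did not overlap (1.24, 0.05 to 2.44). Both are guanylate-binding proteins of a family with near-identical copies, among which reads could have been split, and Gbp2 (0.14, -0.51 to 0.79) and Gbp3 (-0.13, -0.80 to 0.54) did not separate. Gbp6 and Gbp4, of 39 kept genes, stand beside 3.42% of all kept genes that did not overlap in the higher direction.

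Lipid-associated macrophage genes were split evenly, 8 higher and 8 lower, with a median log2 difference of 0.04, or -0.02 when scaled to protein-coding reads and -0.21 without control 775. Spp1, osteopontin, stood at 1056, 663 and 650.4 CPM in cKO 725, 746 and 867 and at 1126, 2679 and 775 CPM in control 706, 720 and 775 (-0.79, -1.53 to -0.04). Control 720 was far above the other 5, and the difference was -0.28 without it. Ctsb, a lysosomal protease, differed by 0.22 (-0.45 to 0.88), and Abca1, the cholesterol exporter, by -0.00 (-0.59 to 0.59). The 30 lysosome genes had a median of 0.20, with 23 higher, and -0.13 without control 775. Of them Psap, the precursor of saposins, differed by 0.26 (-0.57 to 1.09), and Ctsd, another protease, by -0.27 (-0.98 to 0.45). The 19 kept phagocytosis and Fc receptor genes had a median of 0.25 (-0.15 without control 775), with Axl, a receptor for dying cells, at 0.18 (-0.53 to 0.89), the scavenger receptor Lrp1 at -0.25 (-0.89 to 0.40) and the fungal receptor Clec7a at 0.28 (-0.39 to 0.96). In these 3 lists no gene separated the groups.

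Cholesterol synthesis genes had a median log2 difference of -0.16, which ranged from -0.19 to -0.09 as single libraries were left out. Of 21 kept genes, 14 were lower. Sc5d, which acts late in the pathway, stood at 34.8, 25.1 and 24.2 CPM in cKO 725, 746 and 867 and at 37.4, 43.5 and 64.5 CPM in control 706, 720 and 775 (log2 difference -0.75, -1.44 to -0.06). The other genes overlapped between groups, among them the synthase gene Hmgcs1 (-0.16, -0.84 to 0.51) and Srebf2, the factor that induces the pathway (-0.24, -0.79 to 0.31).

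Mitochondrial genes had medians near that of all genes, 0.09 for 36 genes of the respiratory chain and ATP synthase and 0.00 for 25 genes of mitochondrial translation (-0.06 when scaled to protein-coding reads). The most abundantly counted were Atp5b (-0.18, -0.72 to 0.37), Atp5a1 (-0.08, -0.69 to 0.53) and Sdha (0.19, -0.40 to 0.77) in the first, and the tRNA ligases Iars2 (-0.36, -1.04 to 0.32) and Lars2 (-0.13, -0.84 to 0.57) and the ribosomal Mrpl24 (-0.15, -0.84 to 0.55) in the second. Besides Cox7a2 and Tufm, Cox6c did not overlap in the higher direction, at 13.9, 21.9 and 11.5 CPM in cKO 725, 746 and 867 and 10.9, 4.08 and 2.87 CPM in control 706, 720 and 775 (1.40, 0.20 to 2.60). Cox6c overlaps Vps13b on the other strand, which had a mean of 207 CPM, so their reads cannot be told apart. Atp5g3, a subunit of the ATP synthase ring, did not overlap in the lower direction (-0.45, -1.05 to 0.14). In the translation list Mrps9 was higher (1.32, 0.13 to 2.5) and Mrpl12 lower (-0.39, -1.5 to 0.72) without overlap. These 3 of 36 and 3 of 25 genes stand beside 6.56% of all kept genes that did not overlap. The respiratory median was -0.03 without control 720 and -0.01 without control 775.

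The 28 kept glycolysis and hypoxia genes had a median log2 difference of -0.02, from -0.35 without control 775 to 0.21 without control 706. The glucose transporter Slc2a1 differed by 0.39 (-0.23 to 1.0) and the glycolytic enzyme Aldoa by 0.25 (-0.42 to 0.92), and no gene separated the groups. The 28 kept cell cycle genes had a median of -0.10, from -0.27 to 0.10 as single libraries were left out. Mki67, a marker of dividing cells, differed by -0.39 (-1.01 to 0.23), Pcna, the replication clamp, by 0.13 (-0.43 to 0.69), and Rrm1, which makes deoxynucleotides, by -0.08 (-0.63 to 0.48). In the cell cycle list Aurka, a mitotic kinase, alone did not overlap (0.79, -0.63 to 2.22).

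Genes of migration were described because CXCR4 is a migration receptor. Of 23 actin regulators, 20 were higher in mean, with a median log2 difference of 0.13 and -0.03 without control 775. Myh9, the main myosin of cell contraction, stood at 669, 1136 and 927 CPM in cKO 725, 746 and 867 and at 817, 1008 and 705 CPM in control 706, 720 and 775. Actr2, a subunit of the Arp2/3 complex, differed by 0.01 (-0.51 to 0.54), and Actr3 of the same complex by 0.21 (-0.36 to 0.79). No actin gene separated the groups. Of 20 integrins and partners, 17 were higher in mean (median 0.26, and -0.03 without control 775). Itga6, a laminin receptor also made by epithelium, was the only one without overlap and lay in the lower direction, at 550.1, 567 and 573 CPM against 672, 658 and 623 CPM (-0.21, -0.72 to 0.30). Itgb1, its beta chain, differed by 0.02 (-0.50 to 0.55), and Cd44, the hyaluronan receptor, by 0.28 (-0.32 to 0.88).

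The median log2 difference over 11 kept chemoattractant receptors was 0.17, and -0.18 without control 775. Ccr2, the receptor by which monocytes enter tumors, stood at 182, 140 and 979 CPM in cKO 725, 746 and 867 and at 183, 188 and 273 CPM in control 706, 720 and 775. It was high in cKO 867 alone, as were monocyte genes in sum (3438 CPM for 16 genes, against 996 to 1727 CPM in the others). Cx3cr1, a fractalkine receptor, differed by 0.10 (-0.63 to 0.83) and C3ar1, a complement receptor, by 0.03 (-0.60 to 0.67). Cx3cr1 overlaps Csrnp1 on the same strand, which had a mean of 270.0 CPM, so reads could have been shared between them. The 14 kept chemokine ligands had a median of 0.18, and leaving out cKO 867 or control 775 turned it to -0.01 or -0.02, while dropping control 720 gave 0.53. Among them were Cxcl16 at 0.17 (-0.43 to 0.78), Ccl6 at 0.57 (-0.35 to 1.48) and Ccl9 at 0.19 (-0.57 to 0.96). The latter pair was highest in cKO 867, at 423 and 302 CPM, and none separated the groups.

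Of 27 kept factors by which macrophages act on tumor cells and vessels, 15 were higher and 12 lower in mean, with a median log2 difference of 0.08, which was -0.15 without control 775 and -0.02 without cKO 746. Vegfa, the main vessel growth factor, stood at 403, 573 and 463 CPM in cKO 725, 746 and 867 and at 724, 606 and 276 CPM in control 706, 720 and 775. Control values enclosed all 3 values labelled cKO. Thbs1, which inhibits vessel growth, differed by -0.08 (-0.78 to 0.62). Of the 27 genes, 4 had an interval without 0 before any adjustment, Spp1 among them, and all had overlapping groups. Over all kept genes, 2.35% met the same limit (unadjusted limma p under 0.05). Csf1, the macrophage growth factor, stood at 61.8, 107 and 130.1 CPM in the libraries labelled cKO and at 20.4, 86.9 and 46.2 CPM in control (1.11, 0.29 to 1.92), and the difference was 0.58 without control 706. Mmp9, a gelatinase also made by neutrophils, stood at 0.836, 6.60 and 4.13 CPM against 77.5, 5.07 and 5.87 CPM (-1.84, -3.53 to -0.14), or -0.64 without control 706. Mmp13, a collagenase, stood at 52.0, 67.8 and 15.0 CPM against 17.6, 22.6 and 15.9 CPM (0.99, 0.06 to 1.92), or 0.58 without cKO 746. The highest difference of the list was that of the cytokine Il6, 1.62 (-0.30 to 3.54), or 0.41 without cKO 867. No gene of this list separated the groups.

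**Figure D5:**
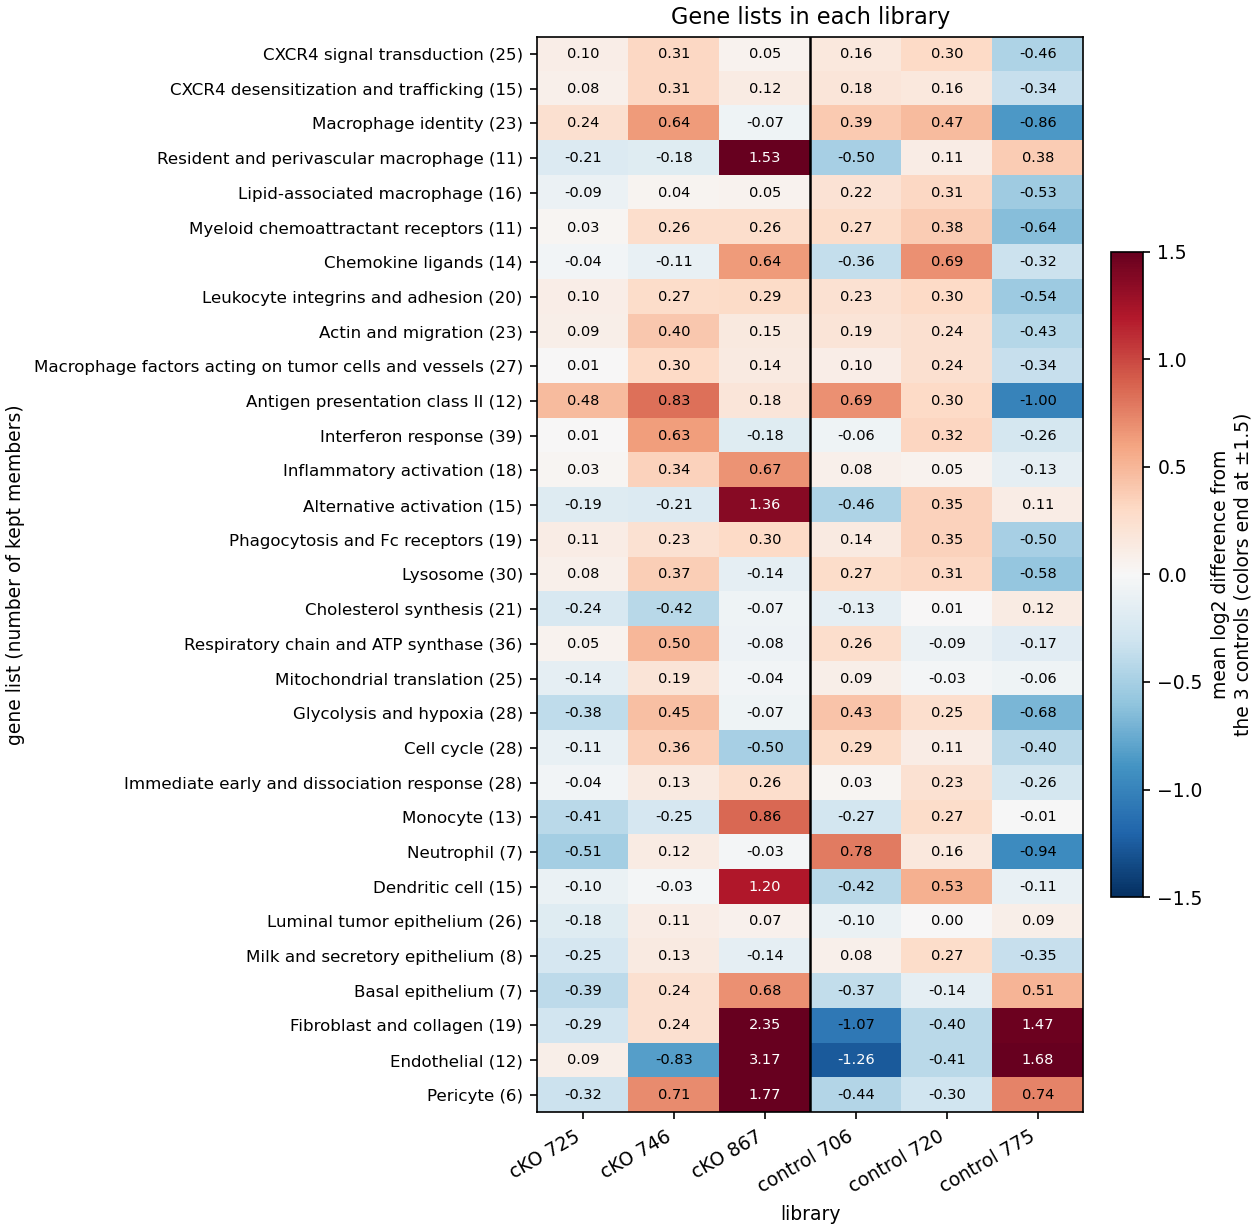
Mean over the kept members of each gene list of log2(CPM + 1) in a library minus the mean of the 3 controls; columns are libraries, rows are lists with at least 6 kept members, and colors end at ±1.5. Control 775 is low in most myeloid rows (-0.86 in macrophage identity), while cKO 867 and control 775 are high in the endothelial row (3.17 and 1.68).

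Markers of vessels and connective tissue differed between libraries of the same label. Among 12 kept endothelial genes, 11 were higher in mean in the group labelled cKO with a median log2 difference of 0.80, and without cKO 867 the median was -0.37. Pecam1, an endothelial junction protein, stood at 4.47, 10.9 and 73.8 CPM in cKO 725, 746 and 867 and at 7.78, 2.23 and 27.1 CPM in control 706, 720 and 775. Aqp1, a water channel of vessels, reached 279.8 CPM in cKO 867 and 144 CPM in control 775, against 6.81 to 24.5 CPM in the other 4, and Ptprb and Cdh5, both of endothelial junctions, had the same 2 libraries on top. Fibroblast and collagen genes had a median of 0.91 over 19 genes, 0.07 without control 706 and 1.83 without control 775. Pdgfra, a receptor of fibroblasts, was the only one without overlap and lay in the lower direction (-1.24, -2.72 to 0.25). Sparc, a matrix protein, stood at 136, 126 and 556 CPM in the libraries labelled cKO and at 31.3, 46.1 and 338 CPM in control (log2 difference 1.41, 0.19 to 2.63), so that control 775 was above cKO 725 and 746. The difference was 0.72 without cKO 867 and 2.45 without control 775. It was one of 3 genes past the threshold when control 775 was left out.

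Pericyte genes had a median log2 difference of 0.56 over 6 genes, or 0.23 without cKO 867. Rgs5 stood at 127 CPM in cKO 867 and 43.7 CPM in control 775, against 2.08 to 12.5 CPM in the other 4, and its difference of 1.70 (-0.05 to 3.44) was 0.56 without cKO 867 and 2.92 without control 775. Mcam was at 0.61 (-0.22 to 1.43) and Notch3 at -0.10 (-0.69 to 0.49). Dendritic cell genes had a median of 0.29 over 15 (0.12 without control 775, 0.69 without control 720), with Wdfy4, needed for cross-presentation, at 0.46 (-0.25 to 1.16), Tcf4, the factor of plasmacytoid cells, at 0.24 (-0.27 to 0.75), and Ly6d as the only one without overlap. Monocyte genes had a median of 0.18 over 13, and -0.15 without cKO 867, where the matrix gene Fn1 reached 807 CPM against 80.4 to 458 CPM in the others. Nr4a1, a factor of patrolling monocytes that is also an early response gene, differed by 0.23 (-0.35 to 0.82).

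The 26 luminal genes had a median log2 difference of -0.07, 12 higher and 14 lower, and the sign changed with the library left out (-0.10 to 0.10). Cldn4, a tight junction protein, stood at 1906, 2429 and 2340 CPM in cKO 725, 746 and 867 and at 1646, 1818 and 2121 CPM in control 706, 720 and 775, with overlapping groups. Cdh1, the epithelial cadherin, differed by -0.21 (-0.75 to 0.34), and the luminal keratin gene Krt18 by 0.34 (-0.22 to 0.89). Elf5, a luminal transcription factor, did not overlap in the higher direction, at 90.4, 96.9 and 116 CPM against 68.2, 81.5 and 81.8 CPM (0.38, -0.16 to 0.93). Elf3, an epithelial factor of the same family, did not overlap in the lower direction, at 49.0, 66.0 and 52.0 CPM against 87.5, 81.2 and 89.7 CPM (-0.63, -1.20 to -0.07). Elf5 and Elf3, of 26 luminal genes, stand beside 6.56% of all kept genes that did not overlap in either direction. The 8 kept milk genes had a median of 0.07, or 0.00 when scaled to protein-coding reads and -0.16 without cKO 746. Among them Csn3, a casein, was counted at 1557 to 4908 CPM and differed by 0.12 (-0.67 to 0.91), the iron carrier Trf by 0.21 (-0.46 to 0.88), Mfge8, which bridges dying cells to phagocytes, by 0.26 (-0.34 to 0.85), and Csn1s1, another casein, did not overlap in the lower direction (-1.25, -2.70 to 0.19). The 7 kept basal genes had a median of 0.03, led by Lgr6 at 0.02 (-0.59 to 0.63), with Acta2 at 0.74 (-0.29 to 1.76) and Mylk at 0.56 (-0.67 to 1.79), both genes of smooth muscle and myoepithelium. The basal median was 0.57 without cKO 725 and -0.02 without cKO 746, cKO 867 or control 706. Acta2 ranged from 0.38 to 1.39 as single libraries were left out, and Mylk was at -0.10 without cKO 867 and -0.02 without control 706.

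Lymphocyte markers were low, with 2 of 28 kept, Il7r (-0.19, -0.97 to 0.59) and Cd4 (0.22, -0.97 to 1.40), and sums of 44.9 to 100.4 CPM. Of the neutrophil markers 7 of 19 were kept, 3 higher and 4 lower, with a median of -0.09 (-0.40 without control 775, 0.10 without control 720). The leading neutrophil genes were Lcn2 (0.28, -0.41 to 0.97) and Ltf (-0.12, -0.66 to 0.41), which mammary epithelium also makes, and Csf3r (0.04, -0.86 to 0.95), the receptor of the growth factor of neutrophils. The single kept mast cell gene, Kit, is also made by luminal epithelium and differed by 0.04 (-0.59 to 0.66). Of the adipocyte genes Fabp4 (-0.32, -2.28 to 1.63) and Lipe (-0.86, -2.03 to 0.31) were kept, of which Lipe, a lipase, did not overlap, and of the red cell genes Hbb-bs (-0.05, -1.85 to 1.75).

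Genes of the early response to dissociation were abundant in all 6 libraries. The 28 genes summed to 14361 to 19379 CPM, 14 were higher and 14 lower, and the median log2 difference was 0.00, or -0.06 when scaled to protein-coding reads. Single genes ranged from -0.62 to 2.09. Unadjusted limma p was under 0.05 for 3 of the 28, beside 2.35% of all kept genes. Fosb stood at 3944, 4750 and 4255 CPM in cKO 725, 746 and 867 and at 3332, 5922 and 3097 CPM in control 706, 720 and 775. Fos differed by -0.15 (-0.75 to 0.44) and Klf6 by 0.17 (-0.46 to 0.79). Egr3 was the only one of these genes without overlap.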

How the data were processed

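RNA sequencing libraries, with ribosomal RNA blocked during preparation, were made from sorted tumor macrophages of 6 mice, 3 labelled cKO and 3 control. The authors processed reads with STAR 2.7.8a and Partek against GRCm38 (mm10), per the submitters' processing notes; how reads were counted is not given in the sources used here. The deposited values were read as log2(CPM + 1), because back-transformed values add up to 1000000 in each library. Low values came out as whole reads (within 0.1) for 83.7% to 89.9% of genes, under the 95% required, so no count test was run and depths of 14.4 to 25.2 M reads are estimates.

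The 16304 genes averaging 1 CPM or more were fitted with limma 3.58.1 in R 4.3.3 (lmFit, eBayes with trend, pseudocount 1, two-sided), and p-values were adjusted by Benjamini-Hochberg over all of them. Intervals are 95% intervals of that fit, unadjusted. Groups that do not overlap have every library of one group above every library of the other. An exact permutation test of 3 against 3 cannot go below p = 0.1. The fit was tested on simulated data.

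Genes were named by 3 rules: Cxcr4, Adgre1, Itgam, Lyz2, Cxcl12 and Ackr3; the 12 per direction with the largest gap between groups, without predicted gene models; and per list the 3 members counted highest and up to 3 with the largest gap. Genes named beyond these were chosen after their values were seen. The members and gene lists were chosen with earlier results of these data known. Alternatives were pseudocounts of 0.1 and 5, no expression filter, a fit of the kept genes only, 3 other scalings, no trend, library weights and each library left out. After the data were seen, a fit without cKO 867 and control 775 and one with the endothelial level as covariate were added. Gene positions came from the GENCODE annotation of GRCm38. Overlaps between genes came from the positions given with the deposited values, which do not match GRCm38. Some genes that these rules select are not reported here.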

Additional observations from a re-analysis of the deposited data

How the results depend on the processing

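The count of 0 genes past the threshold (limma, adjusted p under 0.05) held under every alternative run except without control 775, where 3 fitted genes passed, 2 of them kept; leaving out single libraries thus gave 0 to 3 fitted and 0 to 2 kept genes. The 3 were Sparc (log2 difference 2.45, adjusted p 0.0464), Amd2 (4.24, adjusted p 0.00681), which has a near-identical copy in Amd1, and the pseudogene Gm4735 (-2.40, adjusted p 0.0464). The Cxcr4 difference ranged from -0.62 to 0.95 as single libraries were left out, and it was reversed without cKO 746 (-0.57) and without control 706 (-0.62). Adgre1 ranged from -0.02, without control 775, to 0.51. Itgam reached 0.53 and was at -0.21 without cKO 867, at -0.25 without control 775 and at -0.69 without both. Kept genes whose groups did not overlap numbered 578 to 1233 in the higher and 534 to 988 in the lower direction with 1 library left out, and 1140 and 1691 in the 4 libraries other than cKO 867 and control 775, because fewer libraries overlap less. No paired analysis was possible because the labels name no partners between the cKO and control mice.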
